A study of Homo sapiens with 6 samples.

Results

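Prostaglandin synthesis and receptor genes were followed in 12Z cells treated with myrrh extract. The 10 genes were chosen by symbol from the 60419 genes of the deposited tables: PLA2G4A, PTGS1, PTGS2, PTGES, PTGES2 and PTGIS for synthesis, HPGD for breakdown, and PTGER2, PTGER4 and PTGFR for reception. 12Z, labelled wild type, is an established human line derived from endometriosis, a disease in which tissue like the lining of the uterus grows elsewhere. The Myrrh group had 3 libraries from cells given myrrh extract, diluted in DMSO, at 100 µg/mL for 12 h, and the DMSO group had 3 libraries from cells given DMSO. All cells were kept in medium with 10% charcoal-stripped serum, which is low in steroid hormones. Nothing in the labels says whether replicates came from separate cultures, and the p-values therefore measure only the spread between these libraries, which may be technical. In RNA from whole cultures, fewer cells that express a gene and less of its RNA per cell cannot be told apart.

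Prostaglandins are short-lived lipid signals made from arachidonic acid. A phospholipase frees the acid from membranes, a cyclooxygenase (PTGS1 or PTGS2) turns it into prostaglandin H2, and a terminal synthase makes the final product, such as prostaglandin E2 or prostacyclin. The product leaves the cell, acts on G protein-coupled receptors and is inactivated after it is taken up again. In endometriosis, prostaglandin E2 made through the inducible enzyme PTGS2 is a known mediator of pain and inflammation and a known inducer of local estrogen synthesis.

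The promoters of the enzymes and receptors with the clearest changes are shown with the motifs found in them. Windows run from 250 bases before to 50 after a RefSeq transcription start (GRCh38.p14). Of the 10 genes, 9 had at least 1 window, 13 windows in all, and PTGIS had none. Capitals mark the letters searched on both strands: the cyclic AMP response element TGACGTCA and its 5-letter part TGACG, the E-box CACGTG, the heat shock element TTCNNGAA, the antioxidant response element TGACNNNGC, the ATF4 and C/EBP composite element TGATGNAA, the box TATAAA and the NF-kB consensus. The NF-kB consensus was searched as GGGRNNYYCC, with R for A or G, Y for C or T and N for any letter. TGACG lies within TGACGTCA, and both can overlap TGACNNNGC. The windows below are PTGS2 on the minus strand at chr1:186680374-186680673, PTGES on the minus strand at chr9:129752993-129753292, 1 of the 3 windows of PTGES2, on the minus strand at chr9:128128095-128128394, and PTGER4 on the plus strand at chr5:40679665-40679964.
PTGS2: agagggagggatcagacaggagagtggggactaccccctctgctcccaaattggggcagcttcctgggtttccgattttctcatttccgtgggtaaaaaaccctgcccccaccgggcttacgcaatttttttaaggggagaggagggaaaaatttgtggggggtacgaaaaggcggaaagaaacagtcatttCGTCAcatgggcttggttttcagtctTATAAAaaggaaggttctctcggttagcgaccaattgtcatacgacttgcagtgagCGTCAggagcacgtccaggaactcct
PTGES: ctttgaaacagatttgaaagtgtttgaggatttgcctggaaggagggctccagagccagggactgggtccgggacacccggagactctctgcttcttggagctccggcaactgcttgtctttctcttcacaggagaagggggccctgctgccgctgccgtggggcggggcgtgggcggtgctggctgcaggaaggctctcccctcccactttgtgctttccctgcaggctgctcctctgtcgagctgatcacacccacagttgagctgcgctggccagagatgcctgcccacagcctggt
PTGES2: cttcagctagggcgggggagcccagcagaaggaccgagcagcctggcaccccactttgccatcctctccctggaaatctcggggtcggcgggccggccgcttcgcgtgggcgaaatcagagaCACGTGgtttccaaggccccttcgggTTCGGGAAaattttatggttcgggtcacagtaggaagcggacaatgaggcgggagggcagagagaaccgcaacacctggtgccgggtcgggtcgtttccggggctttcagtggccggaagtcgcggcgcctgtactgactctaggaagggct
PTGER4: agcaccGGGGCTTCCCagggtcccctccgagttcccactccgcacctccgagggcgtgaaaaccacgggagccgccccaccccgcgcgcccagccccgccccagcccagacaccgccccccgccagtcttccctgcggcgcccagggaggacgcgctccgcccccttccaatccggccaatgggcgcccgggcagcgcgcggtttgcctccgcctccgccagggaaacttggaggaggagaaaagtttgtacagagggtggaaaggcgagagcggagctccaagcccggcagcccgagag
The PTGS2 window held TGACG on the opposite strand at position -58 from the start and again at 24, and TATAAA at -32. At least 1 TGACG was present in 24.6% of all 35116 RefSeq windows and TATAAA in 11.5%. The PTGES window held none of the motifs searched. The PTGES2 window held an E-box, found in 7.26% of all windows, and a heat shock element, found in 7.74%. The other windows of PTGES2 held neither, and each held 1 antioxidant response element, as did 13.3% of all windows. In the PTGER4 window 1 match to the NF-kB consensus was found, as in 11.3% of all windows. These matches describe letters and show no binding. A site that differs from the searched letters by a single base is not marked, so a window without a match can still hold such a site.

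The libraries held 22454783 to 24531493 estimated counts in the Myrrh group and 22592816 to 27588151 in the DMSO group. Log2 expression correlated across genes at 0.990 to 0.993 within a group and at 0.920 to 0.926 between groups. Of 9 epithelial markers, CDH1 and CLDN3 stayed below 1 TPM (a level scaled to transcript length and library size) in every library, while none of 9 stromal markers did. The epithelial list summed to 1170 to 1276 TPM in Myrrh libraries and 1607 to 1643 TPM in DMSO libraries, and the stromal list to 2430 to 2540 TPM in Myrrh libraries and 5263 to 5454 TPM in DMSO libraries. Markers of endothelial cells summed to at most 0.13 TPM in Myrrh libraries and 0.27 TPM in DMSO libraries. Of 6 markers of leukocytes and macrophages, which also make prostaglandins, PTPRC, LYZ, CSF1R and CD163 stayed below 1 TPM, with CD163 at 0. The sum of that list was 53.7 to 76.9 TPM in Myrrh libraries and 30.5 to 34.3 TPM in DMSO libraries. Of its 3 tested members 1 rose, CD68 (0.84 ± 0.07), and 2 fell, CD14 among them (-2.28 ± 0.27). Of 4 smooth muscle markers, 3 stayed below 1 TPM. The part of these lists in the results was not tested. Mitochondrial genes took 6.84% to 8.45% of counts in Myrrh libraries and 14.0% to 14.7% in DMSO libraries, and the part of this difference was not tested either.

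In Myrrh-treated cells the transcripts of PTGS2, PTGES2, PLA2G4A, PTGER2 and PTGER4 rose, and those of PTGIS, PTGES and PTGFR fell. These 8 genes passed the filter on low counts, and all 8 were called by edgeR's quasi-likelihood test with an adjusted p (Benjamini-Hochberg over 16395 genes) under 0.05. The background was high: 78.4% of all genes tested were called, 39.3% higher and 39.1% lower in Myrrh, so the number called is not a result about these genes. The CPM ranges (counts relative to library size, scaled with TMM factors) of the groups did not overlap for any of the 8, as for 80.3% of all genes tested. The median log2 fold change was 0.40 over the 8, against -0.02 over all genes tested. With a filter of at least 5 CPM in 3 libraries, which leaves out PTGER2 and PTGER4, it was -0.08 over the remaining 6. The median over all genes then tested was 0.007. TMM factors were computed anew under that filter, and each of the 6 shifted down, PTGS2 for example from 1.11 to 1.01. Before this filter the middle values of the 6 were -0.32 for PTGFR and 0.36 for PLA2G4A. Most of the lower median thus comes from the loss of PTGER2 and PTGER4, and the shift adds to it. PTGS2, PTGER4 and PTGIS were called with a fold change of at least 2 either way, as were 29.4% of all genes tested. The other members, PTGS1 and HPGD, were too low to test.

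**Figure D1:**
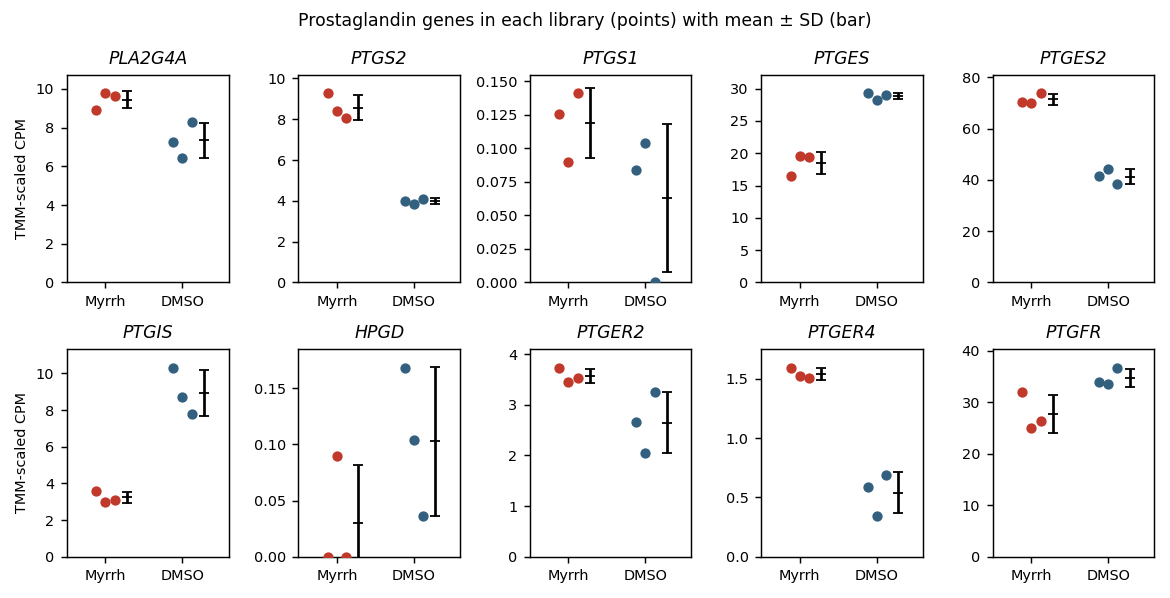
TMM-scaled CPM of the 10 genes in each library, with Myrrh at the left and DMSO at the right of each panel; points are libraries, and bars give mean ± SD (n = 3), cut at 0 for HPGD. PTGS2 sits at 8.08 to 9.26 CPM in Myrrh and 3.85 to 4.11 CPM in DMSO, and PTGIS at 3.002 to 3.61 CPM in Myrrh and 7.79 to 10.3 CPM in DMSO.

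PLA2G4A encodes cytosolic phospholipase A2 alpha, which releases arachidonic acid from membrane lipids. It had 8.93, 9.77 and 9.63 CPM in the Myrrh libraries and 7.28, 6.45 and 8.29 CPM in the DMSO libraries. Every Myrrh library was above every DMSO library, with a gap smaller than the spread in DMSO. The log2 fold change was 0.36 ± 0.11 (SE), with an adjusted p of 0.00411 by edgeR's quasi-likelihood test. This call was lost when counts were scaled by library totals alone (0.22, adjusted p = 0.0743) and on log2(TPM + 1) of every gene above 0 (0.32, adjusted p = 0.0507). PLA2G4A spans chr1:186828953-186988981 on the plus strand in GRCh38, on the same chromosome as PTGS2, and its longest transcript has 18 exons.

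PTGS2, the inducible cyclooxygenase, had 9.26, 8.38 and 8.08 CPM in the Myrrh libraries and 3.999, 3.85 and 4.11 CPM in the DMSO libraries. The lowest Myrrh library stood well above the highest DMSO library. Its mean was 8.57 ± 0.616 CPM in Myrrh and 3.99 ± 0.130 CPM in DMSO (SD, n = 3 each), a log2 fold change of 1.11 ± 0.12 with an adjusted p of 5.31e-09 by edgeR's test. The size of this change exceeded that of 74.2% of all genes tested. Even so the level stayed low, at 2.65 ± 0.265 TPM in Myrrh and 1.22 ± 0.0777 TPM in DMSO. The gene lies at chr1:186671791-186680427 on the minus strand, with 10 exons in its longest transcript.

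PTGS1, the cyclooxygenase of most resting tissues, was close to absent. It had 3, 2 and 3 estimated counts in the Myrrh libraries and 2, 3 and 0 in the DMSO libraries. The ratio of the summed counts, 8 in Myrrh and 5 in DMSO, was 1.90 after scaling, with a 95% exact binomial interval of 0.549 to 7.40, which covers counting error only. A difference in PTGS1 (chr9:122370530-122395703, plus strand, 11 exons in its longest transcript) was not detectable at this depth. PTGS2 made up 97.3% ± 1.63 of cyclooxygenase TPM in Myrrh and 98.3% ± 1.71 in DMSO (SD, n = 3 each). An exact two-sided permutation test gave p = 0.5, and 3 against 3 libraries can give no p below 0.1. PTGS2 thus made up nearly all cyclooxygenase transcript measured in both groups.

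The genes named as prostaglandin E synthases moved in opposite directions. PTGES, the inducible microsomal synthase that is often induced together with PTGS2, had 16.5, 19.6 and 19.4 CPM in the Myrrh libraries and 29.3, 28.3 and 29.02 CPM in the DMSO libraries. All Myrrh libraries were lower, and the DMSO libraries lay close together. PTGES fell by 0.64 ± 0.07 on the log2 scale (SE; adjusted p 1.18e-08 by edgeR's test), to 15.3 ± 0.935 TPM in Myrrh, against 23.3 ± 0.833 TPM in DMSO (SD, n = 3 each). PTGES2, another membrane-associated synthase, had 70.4, 70.0 and 73.7 CPM in the Myrrh libraries and 41.5, 44.1 and 38.4 CPM in the DMSO libraries. Here every Myrrh library was higher. Its log2 fold change was 0.79 ± 0.06 (SE; adjusted p 3.01e-12 by edgeR's test), with the smallest SE of the 8. PTGES2 had 8135 counts in all. PTGES3, the cytosolic synthase that is also the p23 co-chaperone of HSP90, was no member but acts at this step. It averaged 692 ± 60.7 CPM in Myrrh and 325 ± 11.4 CPM in DMSO, with a log2 fold change of 1.09 ± 0.06.

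As a share of the TPM of all 3 genes, PTGES stood at 2.23%, 2.40% and 2.76% in the Myrrh libraries and at 7.76%, 7.43% and 7.41% in the DMSO libraries. The groups did not overlap (exact two-sided permutation test, p = 0.1, the smallest that 3 against 3 libraries can give). PTGES3 dominates this sum, and without it PTGES made up 19.5% ± 1.26 of the remaining TPM in Myrrh and 40.4% ± 1.91 in DMSO (SD, n = 3 each; exact p = 0.1). PTGES lies at chr9:129738331-129753047 with 4 exons, and PTGES2 at chr9:128120693-128128462 with 7 exons in its longest transcript, both on the minus strand.

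**Figure D2:**
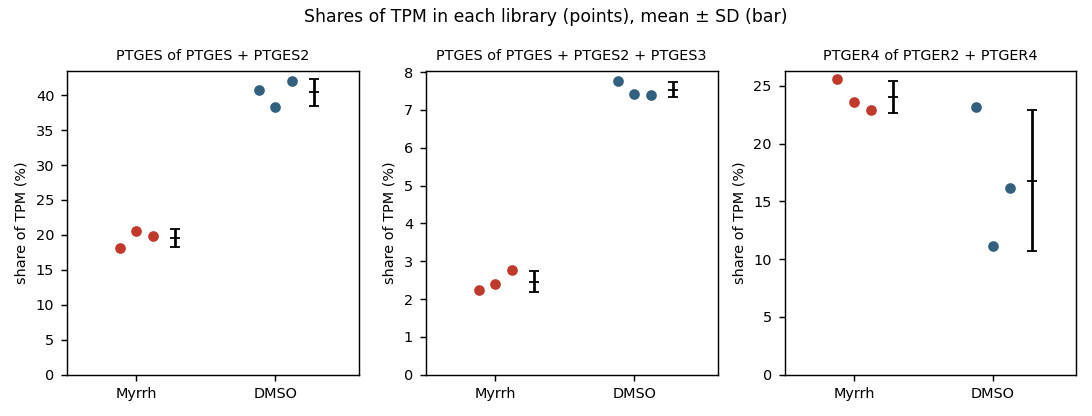
Shares of TPM in percent in each library (points) with mean ± SD (bars, n = 3), Myrrh at the left and DMSO at the right. The panels show PTGES among PTGES and PTGES2, PTGES among PTGES, PTGES2 and PTGES3, and PTGER4 among PTGER2 and PTGER4. PTGES takes 2.23% to 2.76% of the TPM of PTGES, PTGES2 and PTGES3 in Myrrh and 7.41% to 7.76% in DMSO. The PTGER4 shares of the groups overlap.

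PTGIS, the synthase of prostacyclin, had the largest decrease among the 8. It had 3.61, 3.002 and 3.10 CPM in the Myrrh libraries and 10.3, 8.71 and 7.79 CPM in the DMSO libraries. The Myrrh libraries were tightly grouped and all lower. PTGIS fell by 1.46 ± 0.14 on the log2 scale (SE; adjusted p 2.63e-10 by edgeR's test), to 0.364 times the DMSO level. In TPM the decrease was smaller, with 1.41, 0.96 and 0.76 TPM in the Myrrh libraries and 2.45, 2.02 and 1.88 TPM in the DMSO libraries, a ratio of means of 0.493. The counts assigned per unit of TPM, which grow with the length of the transcripts that RSEM assigned reads to, differed between the groups for this gene. On the log2 scale and relative to each library's median gene they were 0.84, 1.003 and 1.46 in the Myrrh libraries and 1.44, 1.45 and 1.44 in the DMSO libraries. The mean difference of -0.34 was larger in size than in 93.5% of the 13923 genes with at least 0.5 TPM in every library. PTGIS was the lowest in TPM of the called enzyme genes in Myrrh, and it lies at chr20:49503874-49568146 on the minus strand with 10 exons.

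HPGD (chr4:174490177-174523154, minus strand) encodes the dehydrogenase that begins the inactivation of prostaglandins. It had 0, 2 and 0 estimated counts in the Myrrh libraries and 4, 3 and 1 in the DMSO libraries. The ratio after scaling was 0.298 with a 95% exact binomial interval of 0.0308 to 1.49, so a difference was not detectable at this depth. Among other genes of inactivation and transport, 7 were tested, of which 1 rose and 3 fell at an adjusted p under 0.05 by edgeR's test, beside 39.3% higher and 39.1% lower over all genes tested. PTGR1, a reductase of prostaglandin metabolites, rose by 0.28 ± 0.05, while PTGR3 (-0.66 ± 0.07), another reductase, and CBR3, a carbonyl reductase (-0.60 ± 0.07), fell. The prostaglandin transporters SLCO2A1 (0.46 ± 0.32, adjusted p = 0.188), for uptake, and ABCC4 (0.11 ± 0.06, adjusted p = 0.0886), for export, were not called by edgeR's test.

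PTGER2 and PTGER4 encode the prostaglandin E2 receptors EP2 and EP4, which raise cyclic AMP. PTGER4 had 1.59, 1.52 and 1.50 CPM in the Myrrh libraries and 0.589, 0.347 and 0.685 CPM in the DMSO libraries. All Myrrh libraries were higher, on few reads: 104 counts over the Myrrh libraries and 43 over the DMSO libraries. The log2 fold change of 1.51 ± 0.30 was the largest increase among the 8 genes in counts, with an adjusted p of 4.92e-05 by edgeR's test. On TPM this rank did not hold: the ratio of mean TPM was 2.18 for PTGS2, 1.98 for PTGER4 and 1.84 for PTGES2. On log2(TPM + 0.1) PTGS2 differed by 1.06 and PTGER4 by 0.89. On log2(TPM + 1) PTGES2 differed by 0.86, PTGS2 by 0.72 and PTGER4 by 0.32, but there the added 1 shrinks the differences of genes with low TPM most. In TPM the values were 0.77, 0.58 and 0.61 in the Myrrh libraries and 0.45, 0.14 and 0.40 in the DMSO libraries, a ratio of means of 1.98 against a fold of 2.85 in counts. The counts per unit of TPM differed for this gene too: on the same log2 scale as for PTGIS they were 0.54, 0.75 and 0.73 in the Myrrh libraries and -0.24, 0.65 and 0.16 in the DMSO libraries, a mean difference of 0.49. TPM values this low carry a rounding step of about 0.01. On log2(TPM + 1) of every gene above 0, where low values are shrunk, the difference was 0.32 and the call was lost (adjusted p = 0.0946). All of PTGER4 (chr5:40679498-40693735, plus strand, 3 exons in its longest transcript) lies within the span of TTC33 on the opposite strand. TTC33 had 27.0 ± 0.530 CPM in Myrrh and 17.7 ± 0.264 CPM in DMSO, with a log2 fold change of 0.61 ± 0.07. The sources used here do not say whether reads were counted by strand. If they were not, strand could not tell reads of the 2 genes apart where their transcripts overlap. Only the overlap of the gene spans was examined here, not that of exons. The part of TTC33 reads in the PTGER4 values was not tested.

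PTGER2 had 3.73, 3.45 and 3.52 CPM in the Myrrh libraries and 2.65, 2.05 and 3.24 CPM in the DMSO libraries. The highest DMSO library came close to the lowest Myrrh library, and in TPM the groups overlapped, at 1.88 to 2.24 in Myrrh and 1.12 to 2.08 in DMSO. The log2 fold change was 0.43 ± 0.18 (SE; adjusted p 0.0314 by edgeR's test). This was the least stable call: it was lost without DMSO replicate 1 (adjusted p = 0.0608), DMSO replicate 2 (0.26, adjusted p = 0.203) or Myrrh replicate 1 (adjusted p = 0.0783), with DESeq2 (adjusted p = 0.133), with library totals (adjusted p = 0.148) and on all 3 versions of the TPM values (adjusted p = 0.114 to 0.225). PTGER4 took 25.6%, 23.6% and 22.9% of the summed TPM of both receptors in the Myrrh libraries and 23.2%, 11.1% and 16.1% in the DMSO libraries. These shares overlapped (exact two-sided permutation p of 0.2). Without DMSO replicate 2 the difference was 4.37 percentage points, against 7.22 with all libraries. PTGER2 lies at chr14:52314305-52328606 on the plus strand with 2 exons.

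PTGFR, the receptor FP for prostaglandin F2 alpha, which signals through calcium, was the most abundant of the 3 receptor genes. It had 31.9, 25.0 and 26.4 CPM in the Myrrh libraries and 33.8, 33.4 and 36.7 CPM in the DMSO libraries. Myrrh replicate 1 lay just under the DMSO range, and in TPM it lay within it (9.06 TPM in that library, against 8.59 to 9.85 TPM in DMSO). PTGFR fell by 0.32 ± 0.08 on the log2 scale (SE; adjusted p 8.21e-04 by edgeR's test). The call did not hold with limma on any of the 3 versions of the TPM values: log2(TPM + 1) as deposited (-0.24, adjusted p = 0.0857), log2(TPM + 0.1) (-0.26, adjusted p = 0.0865) and log2(TPM + 1) of every gene above 0 (adjusted p = 0.170). The gene spans chr1:78303884-78539749 on the plus strand, with 4 exons in its longest transcript.

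**Figure D3:**
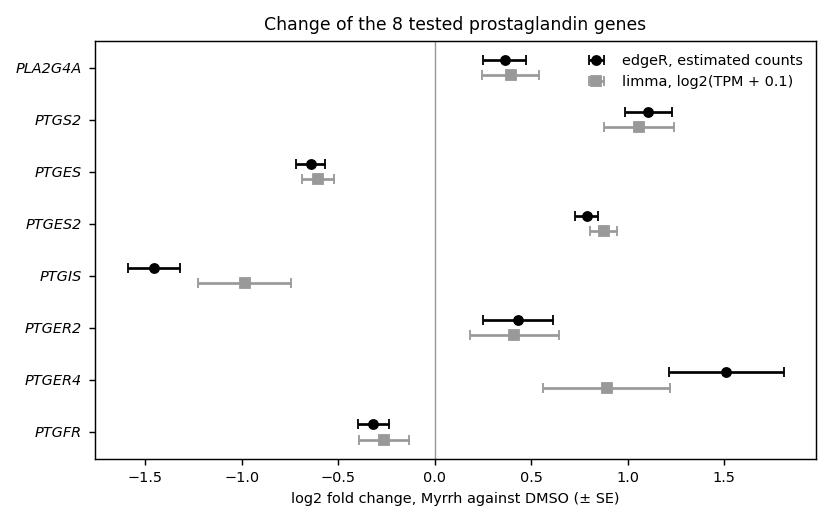
Log2 fold changes of the 8 tested genes, Myrrh against DMSO, with standard errors; circles are edgeR on estimated counts and squares limma on log2(TPM + 0.1). The directions match between the scales for all 8, and the largest gap between scales is for PTGER4 and PTGIS, whose edgeR values are 1.51 and -1.46.

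Ranked by TPM, the order from the top was PTGES2, PTGES, PTGFR and PLA2G4A in both groups, and the ranges of these 4 genes did not overlap with those of their neighbours. Below them the order changed. In Myrrh libraries PTGS2 came next, followed by PTGER2 (2.06 ± 0.180 TPM), PTGIS (1.04 ± 0.333 TPM) and PTGER4 (0.653 ± 0.102 TPM), with only the ranges of PTGIS and PTGER4 overlapping among these neighbours. In DMSO libraries PTGIS came next (2.12 ± 0.297 TPM), then PTGER2 (1.56 ± 0.484 TPM), PTGS2 and PTGER4 (0.33 ± 0.166 TPM), and the ranges of PTGIS and PTGER2, and of PTGER2 and PTGS2, overlapped. Relative to all genes tested, PTGES2 was above 76.3% of genes in DMSO libraries and PTGS2 above 14.6%.

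Transcripts of inflammatory genes often carry the pentamer AUUUA in the 3' untranslated region, where decay factors such as ZFP36 bind. In the longest annotated 3' untranslated region of each gene (GENCODE release 29), PTGS2 had 22 such pentamers, or 8.59 per kb, more than 98.8% of 12773 tested coding genes. PLA2G4A had 8.46 per kb, PTGER4 6.63 and PTGER2 4.34, against a median of 1.69 over the tested coding genes. The 3 genes that fell had fewer than these genes, with 0.494 per kb in PTGIS, 0.781 in PTGES and 2.11 in PTGFR, the last above the median. PTGES2 rose with none. As background, 52.7% of the 1903 tested coding genes with at least 4 pentamers per kb were called higher in Myrrh and 28.7% lower, and below that density 44.1% were called higher and 36.8% lower. With 8 genes these values are a description only.

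**Figure D4:**
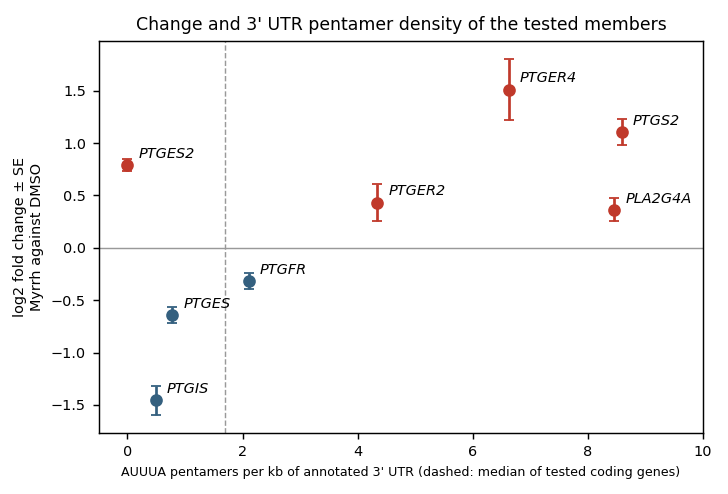
Log2 fold change (Myrrh against DMSO, edgeR, ± SE) of the 8 tested genes against the number of AUUUA pentamers per kb of annotated 3' untranslated region; the dashed line is the median of tested coding genes, 1.69 per kb. PTGER2, PTGER4, PLA2G4A and PTGS2 lie at 4.34 to 8.59 per kb above zero change, and PTGES2 rose with no pentamer.

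Other genes of the route were read from lists of 10 to 33 genes and are given without the members above. Of 13 tested genes of phospholipases and arachidonate release, 5 rose and 6 fell. MGLL, the monoacylglycerol lipase (1.44 ± 0.07), and DAGLB, a diacylglycerol lipase (1.15 ± 0.06), had the highest values. PLA2G6, a calcium-independent phospholipase (-1.34 ± 0.13), and PLA2G4B (-0.98 ± 0.08) had the lowest. Of 11 genes of arachidonate supply and reacylation, all called, 7 rose and 4 fell. ACSL4, which activates arachidonic acid with coenzyme A, rose by 1.14 ± 0.05 and ACSL3 by 0.97 ± 0.06, while the elongase gene ELOVL2 (-0.58 ± 0.06) and LPCAT3, which puts arachidonate back into phospholipids (-0.56 ± 0.06), fell. These and the following list calls are edgeR's at an adjusted p under 0.05, and the background stays at 39.3% higher and 39.1% lower.

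Among 9 further tested prostanoid synthase genes, PTGES3 was the 1 that rose, and 5 fell. GSTM2, a glutathione transferase from a family of similar genes that can share reads, fell by 1.90 ± 0.06. PTGDS, a prostaglandin D synthase, fell by 1.14 ± 0.33, to 0.458 ± 0.0810 CPM in Myrrh, against 1.02 ± 0.219 CPM in DMSO. AKR1C3, which makes prostaglandin F2 alpha and also reduces steroids, fell by 0.99 ± 0.16 and shares sequence with other AKR1C genes. AKR1B1 (-0.10 ± 0.05), CBR1 (0.09 ± 0.05) and the thromboxane synthase TBXAS1 (0.35 ± 0.28) were not called, with adjusted p of 0.0822, 0.133 and 0.248 by edgeR's test. HPGDS had no counts in Myrrh and 2 in all.

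All 3 further tested receptor-related genes fell. PTGIR, the prostacyclin receptor, fell by 0.92 ± 0.14, to 3.56 ± 0.596 CPM in Myrrh, against 6.75 ± 0.173 CPM in DMSO. TBXA2R, the thromboxane receptor (-0.66 ± 0.15), and PTGFRN, a regulator of PTGFR (-0.47 ± 0.08), fell as well. With PTGIS lower as well, the synthase and the receptor of prostacyclin both fell. PTGER1 and PTGER3, for the receptors EP1 and EP3, were below the filter. PTGER3 had 26 counts in Myrrh and 4 in DMSO, a ratio of 7.74 (95% exact binomial interval 2.68 to 30.5), and PTGER1 had 4 in Myrrh and 22 in DMSO, a ratio of 0.216 (0.0542 to 0.637); both intervals cover counting error only. PTGDR and PTGDR2, for prostaglandin D2, were also below the filter.

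**Figure D5:**
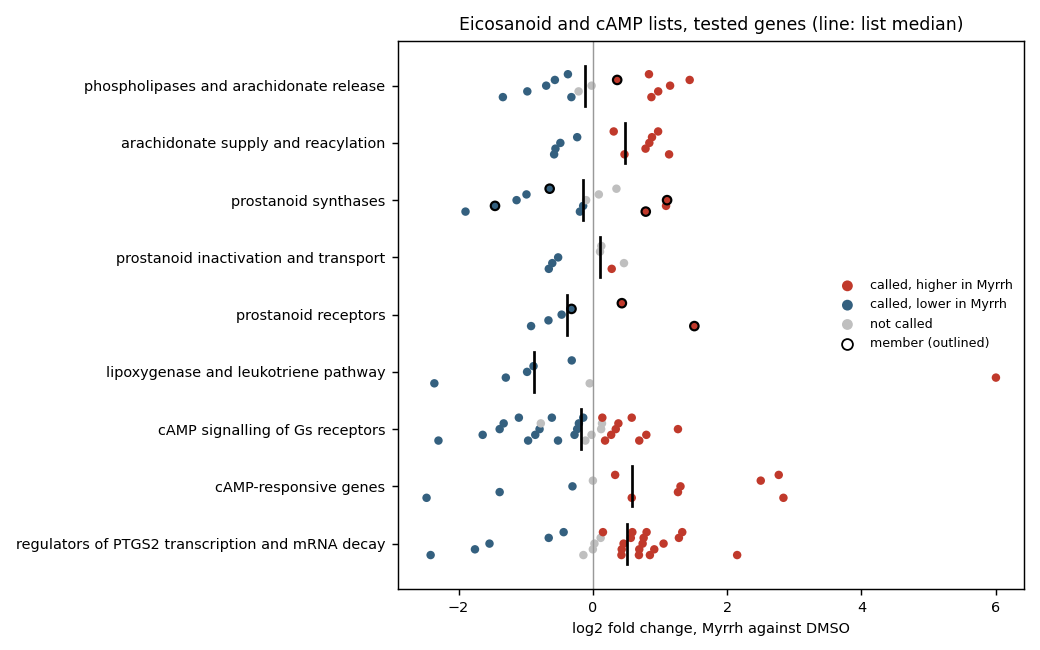
Log2 fold changes (Myrrh against DMSO, edgeR) of the tested genes of 9 eicosanoid, cyclic AMP and PTGS2 regulator lists, 1 point per gene, red where called higher, blue where called lower and grey where not called; members are outlined and black lines are list medians. The medians run from -0.88 for the lipoxygenase and leukotriene pathway to 0.58 for cyclic AMP-responsive genes.

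EP2 and EP4 act through cyclic AMP. Of 28 tested genes of that route 9 rose and 14 fell, with a median log2 fold change of -0.18. CREM, a cyclic AMP-responsive transcription factor, rose by 1.27 ± 0.08 and the coactivator gene CRTC3 by 0.80 ± 0.06, while RAPGEF4 (-2.30 ± 0.30) and RAPGEF3 (-1.64 ± 0.24), exchange factors that bind cyclic AMP, fell. With library totals the route had 6 higher and 16 lower, and GRK2 changed sign. Of 11 tested genes known to respond to cyclic AMP, 7 rose and 3 fell. DUSP1, a phosphatase of MAP kinases, rose by 2.84 ± 0.11 and the kinase gene SIK1 by 2.77 ± 0.10. STAR, which carries cholesterol into mitochondria for steroid synthesis and is induced by prostaglandin E2 in endometriotic stromal cells, fell by 2.48 ± 0.21, to 0.727 ± 0.108 CPM in Myrrh, against 4.06 ± 0.173 CPM in DMSO. PDE4B fell by 1.39 ± 0.14. CYP19A1, the aromatase gene, had 4 counts in all 6 libraries and was not tested.

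Of 26 tested regulators of PTGS2 transcription and mRNA decay, 17 rose and 5 fell, with a median of 0.51. The highest values were those of RELB, an NF-kB subunit (2.15 ± 0.08), and FOSL1, an AP-1 subunit (1.33 ± 0.06). FOS, also of AP-1, fell by 2.42 ± 0.21 and CEBPD, a C/EBP factor, also fell (-1.76 ± 0.06). With library totals 15 rose and 7 fell. The list mixes activators of PTGS2 with factors that shorten the life of its mRNA, and no direction for PTGS2 can be read from it.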

How the data were processed

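Total RNA of 3 Myrrh and 3 DMSO libraries was sequenced. The submitters' processing notes name STAR, RSEM 1.3.1 and the build GRCh38, and the sources used here give neither annotation release nor strand setting. The authors deposited estimated counts per gene, unscaled, in which RSEM splits reads that match several genes, and log2(TPM + 1). Undoing the authors' log2 gives TPM in steps of about 0.01, which limits low values. Estimated counts were rounded to whole numbers, filtered with filterByExpr (16395 genes kept), scaled with TMM (factors 0.934 to 0.973 in Myrrh and 1.05 in DMSO) and tested with edgeR 4.0.16 (glmQLFit, robust; two-sided; Benjamini-Hochberg over all genes tested; threshold 0.05) in R 4.3.3. SE is the log2 fold change over the square root of F. Alternatives used limma 3.58.1 and DESeq2 1.42.0. Shares were compared with exact permutation tests (scipy 1.17.1). Gene positions are from GENCODE release 29, counted from 1, and promoter windows from RefSeq. Members and lists were chosen with earlier results of these data known. All 10 members are named; of each list, up to 2 called genes with the highest and 2 with the lowest log2 fold change are named, besides genes that act at a member's step.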

Additional observations from a re-analysis of the deposited data

How the results depend on the processing

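Of 118 values of the 8 tested genes under the alternatives, none changed direction, 104 kept their side of the threshold and 14 lost the call. PTGS2, PTGES, PTGES2 and PTGIS kept their calls under every alternative run. Their log2 differences were, in that order, 0.72 to 1.16, -0.79 to -0.56, 0.65 to 0.88 and -1.60 to -0.62. The ends 0.72 for PTGS2 and -0.62 for PTGIS are differences in log2(TPM + 1), where low values are shrunk, and not fold changes. The log2 ratio of mean TPM was 1.12 for PTGS2 and -1.02 for PTGIS. On log2(TPM + 1) of every gene above 0, 4 of the 10 genes were called, in place of 8. A filter of at least 5 CPM in 3 libraries left PTGER2 and PTGER4 untested, and 6 members were then tested and called. Leaving out each library in turn gave 7 to 8 members called. Library totals in place of TMM factors moved the median of all genes tested to -0.16, and 3 members were then called higher and 3 lower, with a members' median of 0.26. The PTGES share differed by -20.9 percentage points with PTGES3 left out, an alternative chosen after seeing the data, against -5.07 with it. The PTGER4 share differed by 13.5 percentage points in CPM, against 7.22 in TPM, and by 4.37 to 10.4 with a library left out, lowest without DMSO replicate 2; the cause was not tested. Same-numbered libraries did not deviate together (r = -0.06, -0.005 and 0.036), and with the replicate block 12782 genes and 8 members were called, against 12854 and 8 without it. Depth limits PTGS1, HPGD, PTGER1 and PTGER3, and leaves PTGER4 on 147 counts.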

Other observations

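Lipoxygenases use the same arachidonic acid to make leukotrienes and related lipids. Of 7 tested genes of that branch, 1 rose, ALOXE3, and 5 fell. LTB4R, a leukotriene B4 receptor, fell by 2.36 ± 0.07 on the log2 scale, to 16.5 ± 1.41 CPM in Myrrh, against 84.8 ± 3.48 CPM in DMSO (SD, n = 3 each), and LTB4R2, a related receptor whose gene lies next to it, fell as well, to 4.16 ± 0.605 CPM in Myrrh, against 10.3 ± 0.865 CPM in DMSO. ALOXE3, an enzyme of the epidermal lipoxygenase route, had 238 counts in Myrrh and 4 in DMSO, a ratio of 70.8 with a 95% exact binomial interval of 27.3 to 262, which covers counting error only. ALOX5, ALOX15 and CYSLTR1 were below the filter on low counts. The test was edgeR's quasi-likelihood test at an adjusted p under 0.05, beside a background of 39.3% higher and 39.1% lower.

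Over the 6 libraries, the genes whose log2 CPM was most like that of PTGS2 were MEX3C, KANSL1L and PPP1R15B (Pearson r = 0.9996, 0.9994 and 0.9993), and those most like PTGIS were WDFY2, TTLL1 and LINC01583 (r = 0.999, 0.9984 and 0.998). Of 11368 genes compared, 3890 reached 0.95 with PTGS2 and 2462 with PTGIS, since the 6 libraries fall into 2 groups.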
